A study of Mus musculus with 8 samples.

Results

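The 32 genes described here encode enzymes and regulators of cholesterol and fatty acid synthesis. They were taken as a list by symbol, in pathway order, and matched to the Ensembl identifiers of the gene table. All 32 were among the 15538 genes of the table, and all 8 libraries were used. The list was split by role into 7 genes of the mevalonate steps, 11 genes of the later sterol steps, 5 sterol regulators and 9 genes of fatty acid synthesis. The first 18 are called the sterol synthesis genes below.

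Gene expression was measured by bulk sequencing of polyadenylated RNA from neural stem cells taken from mouse embryos and cultured as neurospheres, free-floating clusters of stem and progenitor cells. The labels give 4 libraries with the genotype Phf23-/- and 4 with the genotype WT, and the series asks how losing Phf23, which encodes a chromatin protein with a PHD finger, bears on the differentiation of these cells. The labels give the tissue as brain and name no strain, embryonic age, treatment, or way in which the Phf23 allele was made. The labels do not say whether the replicates are separate cultures or animals. The p-values therefore measure library-to-library spread alone, and part or all of that may be technical.

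Cells build cholesterol from acetyl-CoA through mevalonate and squalene, and they build fatty acids from the same acetyl-CoA through malonyl-CoA. When sterols run low in the endoplasmic reticulum, the escort protein Scap carries the SREBP transcription factors to the Golgi, where they are cut and released to the nucleus; Insig proteins hold the complex back when sterols are plentiful. Srebf2 encodes the SREBP known mainly for sterol genes and Srebf1 the one known mainly for fatty acid genes, and NF-Y is a frequent partner of both at promoters. The brain makes nearly all of its own cholesterol, since lipoproteins do not cross the blood-brain barrier in quantity.

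Each library labelled Phf23-/- held between 18099114 and 19462516 recovered reads, and each labelled WT between 15647304 and 18241215. Phf23 itself went against the labels. It had 1607, 1528, 1429 and 1361 normalised reads in Phf23-/- 1 to 4, against 720, 766, 788 and 919 in WT 1 to 4 (log2 fold change 0.89 ± 0.106 SE, limma-trend FDR = 0.000581). A total over the gene cannot test for a partial deletion, and all directions that follow take the libraries by their labels. The libraries also differed in how level depended on transcript length. The slope, in log2 units per doubling of length relative to the mean of all libraries, was -0.24, -0.31, -0.09 and 0.04 in Phf23-/- 1 to 4, against 0.26, 0.20, 0.08 and 0.06 in WT 1 to 4. Short transcripts thus read higher in Phf23-/- 1 and 2 and lower in WT 1 and 2, and the part of these slopes in the results below was not tested; values with a length and GC trend subtracted from each library are given beside them.

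The promoters of 25 of the 32 genes were matched by symbol to RefSeq windows of the GRCm38.p6 assembly, from 250 bases before to 50 bases after the annotated start. The box bound by NF-Y was searched as CCAAT on both strands, where it reads ATTGG on the other. It was present in 14 of 15 sterol synthesis genes with a window, in 3 of 4 regulators and in 3 of 6 fatty acid genes, against 37.4% of all 32851 windows and 41.1% of all 27025 genes with a window. A sterol response element of the form TCACNCCAC, searched on both strands, matched only in Hmgcs1 among the 25. It matched in 1.24% of all windows and 1.44% of all genes with a window. The form TCACNTGA, its own reverse complement, matched in 0 of the 25, against 4.18% of all windows and 4.78% of all genes with a window. A match describes letters only, and SREBP sites of other spellings were not searched. Bases just after the start were found in an annotated transcript of the gene for 22 of the 25.

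The 250 bases before the start are shown for 8 genes, 5′ to 3′ on the gene's strand, as examples from each synthesis class; they were chosen after their values were seen, and no relation between promoter letters and expression was tested. The start is that of RefSeq. By the gene coordinates used elsewhere here, the stretch of Tm7sf2 lies within the gene, and those of Idi1, Msmo1 and Elovl6 reach into it. Capitals mark CCAAT or ATTGG, and in Hmgcs1 also the sterol response element. The first 4 belong to the mevalonate steps. Mvk held 5 boxes, Hmgcs1 3, and Mvd and Idi1 2 each in this stretch.
Hmgcs1 (chr13:119690101-119690350, plus strand): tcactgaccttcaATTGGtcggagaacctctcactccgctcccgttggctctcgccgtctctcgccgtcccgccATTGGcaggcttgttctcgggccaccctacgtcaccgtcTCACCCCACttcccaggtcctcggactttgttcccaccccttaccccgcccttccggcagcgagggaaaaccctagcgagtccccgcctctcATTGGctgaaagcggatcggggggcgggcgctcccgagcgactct
Mvk (chr5:114444019-114444268, plus strand): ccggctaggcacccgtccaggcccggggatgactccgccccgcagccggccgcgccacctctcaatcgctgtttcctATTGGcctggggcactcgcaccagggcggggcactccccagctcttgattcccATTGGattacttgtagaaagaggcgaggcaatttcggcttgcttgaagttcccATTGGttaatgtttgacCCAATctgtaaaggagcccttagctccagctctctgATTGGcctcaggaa
Mvd (chr8:122443423-122443672, minus strand): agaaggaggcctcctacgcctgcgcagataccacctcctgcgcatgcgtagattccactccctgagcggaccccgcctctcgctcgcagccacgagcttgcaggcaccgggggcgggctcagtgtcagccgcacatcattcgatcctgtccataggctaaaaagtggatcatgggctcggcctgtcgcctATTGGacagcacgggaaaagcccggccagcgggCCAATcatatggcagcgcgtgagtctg
Idi1 (chr13:8885356-8885605, plus strand): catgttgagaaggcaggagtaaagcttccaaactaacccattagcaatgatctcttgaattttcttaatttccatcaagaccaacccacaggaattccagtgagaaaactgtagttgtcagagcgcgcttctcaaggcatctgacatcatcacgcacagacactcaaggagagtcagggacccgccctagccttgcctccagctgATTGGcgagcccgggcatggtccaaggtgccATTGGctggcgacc

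Tm7sf2 and Msmo1 act in the later sterol steps and held 1 and 3 boxes. Fasn and Elovl6 belong to fatty acid synthesis. Fasn held 3 matches, of which a CCAAT and an ATTGG overlap by 2 bases, and Elovl6 held none in the window.
Tm7sf2 (chr19:6067851-6068100, minus strand): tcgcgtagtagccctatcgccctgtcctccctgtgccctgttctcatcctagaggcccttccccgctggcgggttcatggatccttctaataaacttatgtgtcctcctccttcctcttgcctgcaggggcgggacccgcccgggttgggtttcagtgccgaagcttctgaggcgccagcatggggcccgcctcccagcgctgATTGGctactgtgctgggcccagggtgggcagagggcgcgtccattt
Msmo1 (chr8:64733579-64733828, minus strand): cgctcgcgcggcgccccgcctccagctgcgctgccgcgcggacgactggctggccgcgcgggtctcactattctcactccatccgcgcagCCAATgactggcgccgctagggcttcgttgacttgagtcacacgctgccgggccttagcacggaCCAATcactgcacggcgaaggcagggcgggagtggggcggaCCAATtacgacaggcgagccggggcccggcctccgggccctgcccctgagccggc
Fasn (chr11:120824548-120824797, minus strand): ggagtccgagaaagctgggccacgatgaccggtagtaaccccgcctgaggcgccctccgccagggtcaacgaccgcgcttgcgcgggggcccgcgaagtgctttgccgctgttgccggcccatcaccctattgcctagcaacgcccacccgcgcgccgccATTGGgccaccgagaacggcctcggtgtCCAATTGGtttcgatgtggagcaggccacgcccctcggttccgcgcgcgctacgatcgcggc
Elovl6 (chr3:129532136-129532385, plus strand): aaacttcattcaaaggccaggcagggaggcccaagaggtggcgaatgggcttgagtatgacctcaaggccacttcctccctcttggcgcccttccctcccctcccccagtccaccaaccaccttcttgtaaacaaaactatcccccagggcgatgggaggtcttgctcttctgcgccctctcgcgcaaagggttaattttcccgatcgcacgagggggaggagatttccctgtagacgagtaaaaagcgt

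Sterol synthesis genes were more often higher than lower in the libraries labelled Phf23-/-. Fatty acid genes were called in a smaller share than the 29.6% of all genes, and the 2 that passed were lower. Neither passed with the length and GC trend subtracted, where Fasn was the only fatty acid gene called and was higher. Of the 18 sterol synthesis genes, 9 were called higher and 1 lower by limma-trend at an FDR under 0.05, where 14.8% of all genes were called higher and 14.8% lower, or 29.6% in either direction. Their median log2 fold change was 0.30, against 0.0006 over all genes. Of the 9 fatty acid genes, 2 were called lower and 0 higher, with a median of -0.15; only these 2 had an unadjusted p under 0.05, and neither edgeR nor DESeq2 called a fatty acid gene higher (edgeR called 35.2% of its genes in either direction and DESeq2 33.6%). None of the 5 regulators was called by limma-trend, edgeR or DESeq2, 1 had an unadjusted p under 0.05, and their median was 0.11. Whether the classes differ from one another was not tested. Scaled by library size alone, 39.9% of the calls over all genes were higher, against 50.1% here, and 7 sterol synthesis genes were called higher, without Fdft1 (FDR = 0.0517) and Sqle (FDR = 0.0772).

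In 9 of the 32 genes every library labelled Phf23-/- lay above every library labelled WT, and in 2 every one lay below; over all genes these shares were 13.6% above and 14.2% below. The 9 were Mvk, Mvd, Fdps, Sqle, Tm7sf2, Msmo1 and Dhcr7 of the sterol synthesis genes and Insig1 and Scap of the regulators. The 2 were Acaca and Elovl6. The genotypes overlapped in the other 21.

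**Figure D1:**
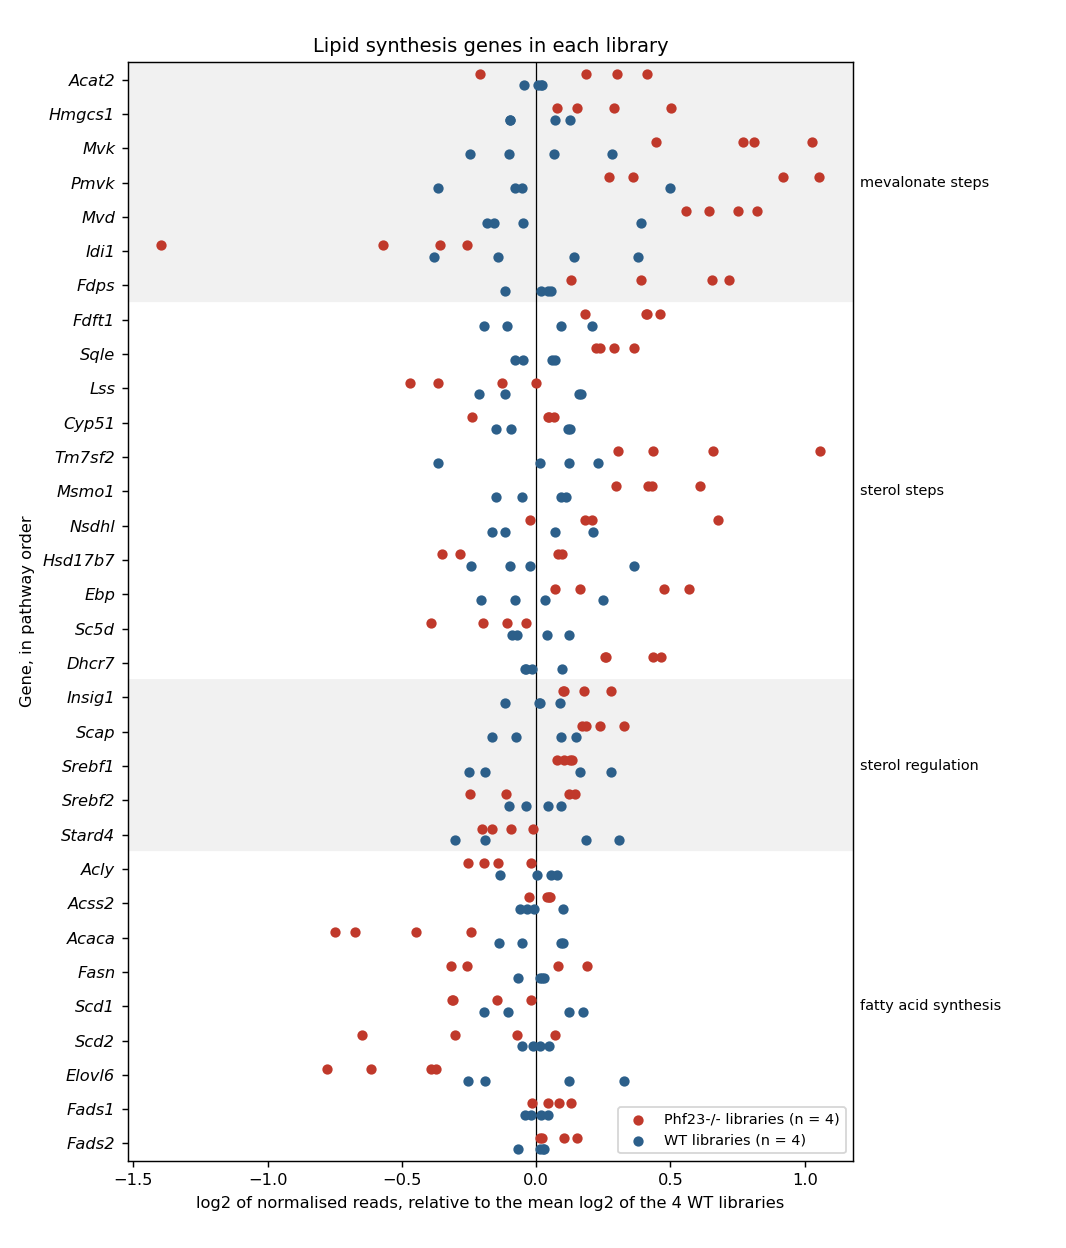
Level of each of the 32 genes in each library, as log2 of normalised reads relative to the mean log2 of the 4 WT libraries. Red points are the 4 libraries labelled Phf23-/- and blue points the 4 labelled WT; genes run down the page in pathway order, and the red points lie right of all blue points in 9 genes and left of all of them in 2.

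The mevalonate steps turn acetyl-CoA into farnesyl diphosphate. Of the 7 genes, 4 rose, 1 fell and 2 did not pass the test, and the median log2 fold change was 0.47. Mvk, mevalonate kinase, which adds the first phosphate to mevalonate, lies on chromosome 5 (114444269 to 114460591, plus strand, mm10). It had 1187, 1378, 1156 and 923 normalised reads in Phf23-/- 1 to 4, against 570, 631, 709 and 824 in WT 1 to 4. The genotypes did not overlap, but Phf23-/- 4 and WT 4 lay close together. The means were 1161 ± 187 in the libraries labelled Phf23-/- and 684 ± 110 in those labelled WT (SD, n = 4 each), which differ 1.70-fold. On the log2 scale the difference was 0.76 ± 0.143 (SE; 95% interval 0.45 to 1.07; limma-trend FDR = 0.00553), and 0.52 with the length and GC trend subtracted (FDR = 0.00236).

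Mvd, the decarboxylase that makes isopentenyl diphosphate, lies on chromosome 8 (122433601 to 122443422, minus strand). It had 985, 938, 871 and 821 normalised reads in Phf23-/- 1 to 4, against 491, 539, 500 and 731 in WT 1 to 4. Again WT 4 stood nearest to the libraries labelled Phf23-/-. The log2 fold change was 0.69 ± 0.134 (SE, limma-trend FDR = 0.0061), and 0.34 with the trend subtracted (FDR = 0.022). Pmvk, the kinase between Mvk and Mvd, had 693, 632, 403 and 429 normalised reads in Phf23-/- 1 to 4, against 259, 322, 316 and 472 in WT 1 to 4. WT 4 exceeded Phf23-/- 3 and 4, and the log2 fold change was 0.65 ± 0.207 (SE, FDR = 0.0332). Pmvk has the shortest transcript of the 32 genes, at 1194 nt, and its log2 fold change with the trend subtracted was 0.23 (FDR = 0.236). It also lost its call when any 1 of Phf23-/- 1, Phf23-/- 2, WT 1, WT 2 or WT 3 was left out.

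Fdps, which joins isoprene units into farnesyl diphosphate, lies on chromosome 3 (89093588 to 89101959, minus strand). It had 4455, 4258, 3547 and 2962 normalised reads in Phf23-/- 1 to 4, against 2737, 2815, 2495 and 2791 in WT 1 to 4. The spread was wider among the libraries labelled Phf23-/- (SD 685) than among those labelled WT (SD 146.7), and the log2 fold change was 0.47 ± 0.126 (SE, limma-trend FDR = 0.0169). The call was lost without Phf23-/- 1.

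Idi1, the isomerase that supplies dimethylallyl diphosphate, was the only sterol synthesis gene called lower. It had 1071, 604, 1241 and 1334 normalised reads in Phf23-/- 1 to 4, against 2073, 1756, 1442 and 1225 in WT 1 to 4. The genotypes overlapped, because WT 4 lay below Phf23-/- 3 and 4, and Phf23-/- 2 stood far below the rest. The log2 fold change was -0.65 ± 0.227 (SE, limma-trend FDR = 0.0482). DESeq2 gave an FDR of 0.0242 and edgeR 0.0539, and the trend-subtracted fit gave -0.55 (FDR = 0.198). The call was lost without any 1 of Phf23-/- 1, Phf23-/- 2, WT 1, WT 2 or WT 3, and without the 4 libraries of steepest length slope the value was -0.05. Its neighbours in the pathway, Mvd and Fdps, moved the other way.

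The first enzymes of the route did not pass the test on the values as deposited. Hmgcs1, which makes HMG-CoA and whose promoter holds the sterol response element, had 10375, 12008, 9421 and 8938 normalised reads in Phf23-/- 1 to 4, against 9255, 8894, 7936 and 7920 in WT 1 to 4. WT 1 lay above Phf23-/- 4, and the log2 fold change was 0.25 ± 0.113 (SE, limma-trend FDR = 0.105). With the length and GC trend subtracted it was 0.37 (FDR = 0.00918), which passed. Acat2, the cytosolic thiolase that condenses acetyl-CoA, had a log2 fold change of 0.17 ± 0.124 (SE, FDR = 0.315), and its lowest library of all was Phf23-/- 4, at 1560 normalised reads.

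In the later steps, which lead through squalene and lanosterol to cholesterol, 5 of 11 genes rose, 6 did not pass the test and the median log2 fold change was 0.28. Msmo1, the oxidase that removes methyl groups from sterol intermediates, lies on chromosome 8 (64718139 to 64733792, minus strand). It had 3673, 4201, 3711 and 3379 normalised reads in Phf23-/- 1 to 4, against 2928, 2969, 2652 and 2479 in WT 1 to 4. The genotypes were well apart. The log2 fold change was 0.44 ± 0.102 (SE, limma-trend FDR = 0.0107), 0.50 with the trend subtracted (FDR = 0.000518) and 0.47 without the 4 libraries of steepest slope (FDR = 0.000587). Mvk, Mvd, Msmo1 and, among the fatty acid genes, Acaca were the 4 genes of the 32 whose calls held when each library in turn was left out.

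Dhcr7, the reductase of the final step of one branch, lies on chromosome 7 (143823145 to 143848410, plus strand). It had 3027, 3430, 3502 and 3038 normalised reads in Phf23-/- 1 to 4, against 2468, 2459, 2506 and 2712 in WT 1 to 4. The genotypes did not overlap, and the log2 fold change was 0.36 ± 0.0926 (SE, limma-trend FDR = 0.0157), or 0.23 with the trend subtracted (FDR = 0.0399). Its call was lost without Phf23-/- 3 or without WT 2. Tm7sf2, a sterol reductase that follows Cyp51, had 761, 1005, 653 and 597 normalised reads in Phf23-/- 1 to 4, against 375, 488, 525 and 567 in WT 1 to 4. The lowest library labelled Phf23-/- lay just above the highest labelled WT, and the log2 fold change was 0.61 ± 0.171 (SE, FDR = 0.0199). Tm7sf2 overlaps Vps51 on the same strand, so some reads could belong to either gene, and its log2 fold change was 0.19 (FDR = 0.412) without the 4 libraries of steepest slope.

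At the entry into the sterol branch, both genes rose. Fdft1, squalene synthase, had 2452, 2459, 2545 and 2097 normalised reads in Phf23-/- 1 to 4, against 2134, 1970, 1617 and 1716 in WT 1 to 4. Only WT 1 reached the level of Phf23-/- 4, and the log2 fold change was 0.37 ± 0.111 (SE, limma-trend FDR = 0.0282). Sqle, squalene epoxidase, a rate-controlling enzyme, had 4606, 5034, 4771 and 4556 normalised reads in Phf23-/- 1 to 4, against 4067, 4101, 3700 and 3777 in WT 1 to 4. It did not overlap between genotypes, and the log2 fold change was 0.28 ± 0.0886 (SE, FDR = 0.0332), or 0.45 with the trend subtracted (FDR = 0.00173). Sqle stayed called in 1 of the 8 fits that left out a library and Fdft1 in 2. Fdft1 overlaps Ctsb on the opposite strand, and the use of strand in counting is not given in the sources used here.

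Lss, which cyclises squalene epoxide to lanosterol, had 1029, 1107, 1305 and 1423 normalised reads in Phf23-/- 1 to 4, against 1592, 1599, 1229 and 1316 in WT 1 to 4, a log2 fold change of -0.24 ± 0.13 (SE, limma-trend FDR = 0.181). Cyp51, the demethylase of lanosterol, had a log2 fold change of -0.02 ± 0.108 (SE; 95% interval -0.25 to 0.21; FDR = 0.91). Both values were positive with the trend subtracted, at 0.12 each, and neither passed the test there (FDR = 0.31 for Lss and 0.277 for Cyp51). Among the remaining genes, Nsdhl and Hsd17b7, which act with Msmo1 in demethylation, had 0.26 (FDR = 0.193) and -0.11 (FDR = 0.605). Ebp, a sterol isomerase, had 0.32 (FDR = 0.112), and Sc5d, a sterol desaturase, had -0.18 (FDR = 0.203).

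The calls were spread over the pathway rather than running along it unbroken. Among the 9 genes called higher, Phf23-/- 4 was the lowest library of its genotype in 7 and WT 4 the highest of its genotype in 5. Summed over the 18 sterol synthesis genes, normalised reads were 44655, 47123, 43438 and 40253 in Phf23-/- 1 to 4, against 39454, 38871, 34934 and 35672 in WT 1 to 4. The sums did not overlap; Phf23-/- 4 and WT 1 were the nearest. In bulk RNA, fewer cells of a type and less RNA per cell cannot be told apart.

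**Figure D2:**
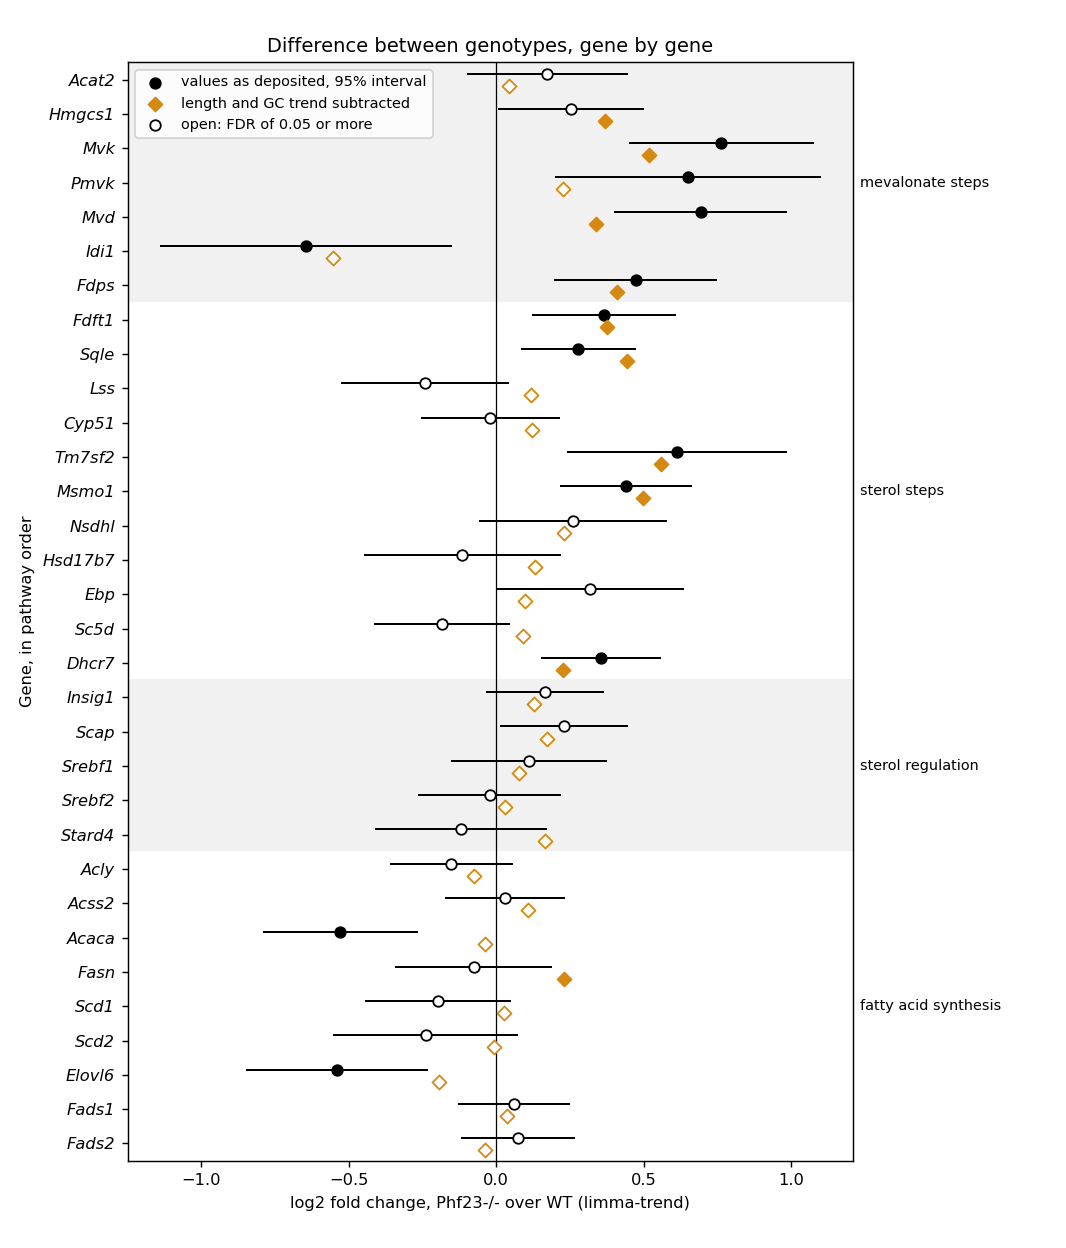
Log2 fold change of each gene, libraries labelled Phf23-/- over those labelled WT. Black circles with 95% intervals are from limma-trend on the deposited values and orange diamonds from the same test after a length and GC trend was subtracted; filled symbols have an FDR under 0.05, and open ones do not. Of the 10 sterol synthesis genes with filled circles, 8 also have filled diamonds and Pmvk and Idi1 do not; nor do Acaca and Elovl6.

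The regulators were expressed at high levels with small differences. Srebf2 had 7235, 6588, 8513 and 8640 normalised reads in Phf23-/- 1 to 4, against 7620, 7279, 8063 and 8341 in WT 1 to 4. Its log2 fold change was -0.02 ± 0.11 (SE; 95% interval -0.26 to 0.22; limma-trend FDR = 0.9). Phf23-/- 1 and 2 were lower than Phf23-/- 3 and 4, and the range of the libraries labelled WT lay within theirs. Srebf1 had 3685, 3830, 3805 and 3749 normalised reads in Phf23-/- 1 to 4, against 3058, 2930, 3905 and 4230 in WT 1 to 4, with a log2 fold change of 0.11 ± 0.121 (SE, FDR = 0.521). RNA level says nothing of how much SREBP protein was cut and in the nucleus.

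Scap had 4257, 4292, 4742 and 4457 normalised reads in Phf23-/- 1 to 4, against 3590, 3368, 4027 and 4184 in WT 1 to 4. Its genotypes did not overlap, but the log2 fold change of 0.23 ± 0.0987 (SE) missed the threshold (limma-trend FDR = 0.0941). Insig1, itself a known SREBP target, likewise did not overlap and had a log2 fold change of 0.17 ± 0.0913 (SE, FDR = 0.187). Stard4, a sterol carrier of the cytosol, had 1377, 1412, 1570 and 1482 normalised reads in Phf23-/- 1 to 4, against 1960, 1799, 1284 and 1387 in WT 1 to 4. Its spread lay mainly within WT, and the log2 fold change was -0.12 ± 0.133 (SE, FDR = 0.534).

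Fatty acid synthesis showed 2 lower genes, both with long transcripts. Acaca, acetyl-CoA carboxylase, which makes malonyl-CoA and controls the pace of the route, lies on chromosome 11 (84129672 to 84401651, plus strand). It had 1677, 1590, 1959 and 2262 normalised reads in Phf23-/- 1 to 4, against 2853, 2864, 2430 and 2575 in WT 1 to 4. The genotypes did not overlap. The log2 fold change was -0.53 ± 0.12 (SE, limma-trend FDR = 0.0101), and -0.04 with the length and GC trend subtracted (FDR = 0.739). Its transcript is 9513 nt long.

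Elovl6, which lengthens saturated fatty acids made by Fasn, lies on chromosome 3 (129532355 to 129638495, plus strand). It had 1634, 1831, 2166 and 2134 normalised reads in Phf23-/- 1 to 4, against 3514, 3047, 2453 and 2349 in WT 1 to 4. All of the libraries labelled Phf23-/- lay below WT 4, the lowest of its genotype. The log2 fold change was -0.54 ± 0.141 (SE, limma-trend FDR = 0.0157), and -0.20 with the trend subtracted (FDR = 0.111). The call was lost without Phf23-/- 1, WT 1 or WT 2. Elovl6 overlaps an antisense gene that is also in the table.

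Fasn, fatty acid synthase, had 10168, 9777, 12884 and 13878 normalised reads in Phf23-/- 1 to 4, against 12303, 11623, 12354 and 12413 in WT 1 to 4. The libraries labelled Phf23-/- fell on both sides of those labelled WT, and the log2 fold change was -0.08 ± 0.122 (SE, limma-trend FDR = 0.672). With the trend subtracted it was 0.23 (FDR = 0.0248), so Fasn, with the longest transcript of the 32 genes at 10050 nt, passed the test in the opposite direction there. Scd2, a desaturase that makes monounsaturated fatty acids, had the highest level of the 32 genes, at 9775 normalised reads per kb in the libraries labelled Phf23-/- and 11340 in those labelled WT. It had 50101, 39486, 58812 and 64894 normalised reads in Phf23-/- 1 to 4, against 63924, 59636, 61350 and 62526 in WT 1 to 4. Phf23-/- 2 was the lowest and Phf23-/- 4 the highest of all 8 libraries, and the log2 fold change was -0.24 ± 0.143 (SE, FDR = 0.227).

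The suppliers of acetyl-CoA did not pass the test. Acly, which cleaves citrate in the cytosol, had a log2 fold change of -0.15 ± 0.0949 (SE, limma-trend FDR = 0.246), and Acss2, which activates acetate, had 0.03 ± 0.0921 (SE, FDR = 0.84). Scd1, the other desaturase listed, had -0.20 ± 0.113 (SE, FDR = 0.207). Fads1 and Fads2, which desaturate polyunsaturated fatty acids, had 0.06 ± 0.0866 (FDR = 0.631) and 0.07 ± 0.0876 (FDR = 0.563), with 95% intervals of -0.13 to 0.25 and -0.12 to 0.26. Scd1 and Scd2, and Fads1 and Fads2, are close relatives whose reads could be divided between them by the counting.

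Summed over the 9 fatty acid genes, normalised reads were 87572, 78255, 101507 and 109654 in Phf23-/- 1 to 4, against 109747, 103642, 103335 and 106094 in WT 1 to 4. Phf23-/- 1 and 2 fell below all libraries labelled WT, while Phf23-/- 3 and 4 did not. The sums of the 5 regulators overlapped between genotypes.

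**Figure D3:**
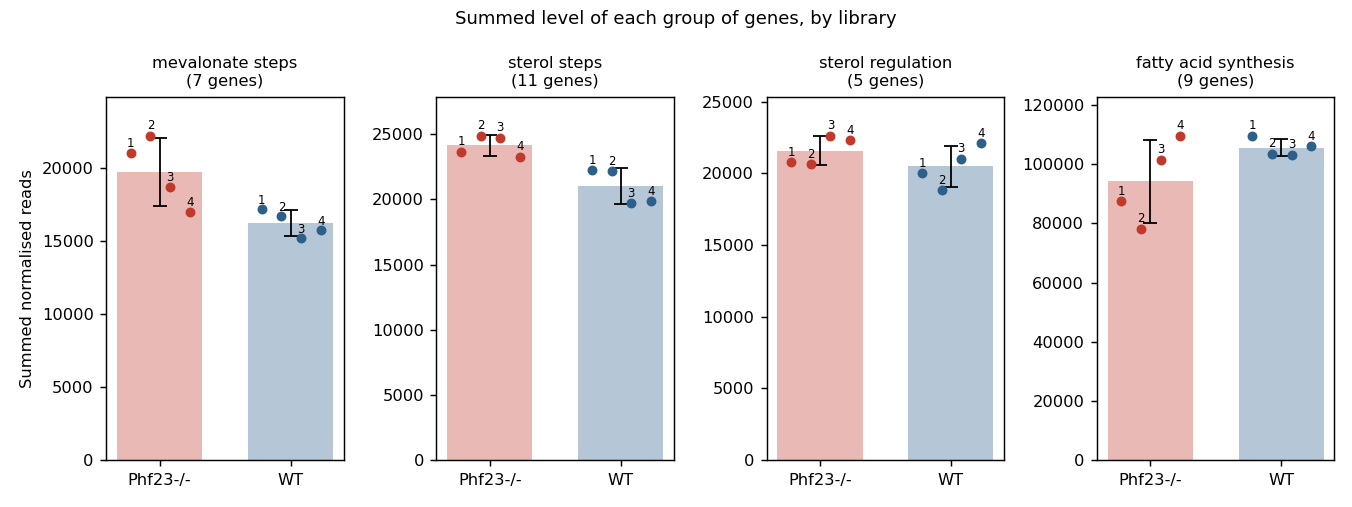
Summed normalised reads of the genes of each role class, by library. Bars are means of the 4 libraries labelled Phf23-/- (left) and of the 4 labelled WT (right), error bars are SD, and numbered points are libraries; points of the mevalonate and regulation classes overlap between genotypes, those of the later sterol steps do not, and the fatty acid sums are lowest in Phf23-/- 1 and 2.

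Differences of the 32 genes followed transcript length. Over the 32 genes, log2 fold change and the length of the longest annotated transcript had a Spearman correlation of -0.757, and with the trend subtracted -0.38. The same correlation was -0.598 over all 13265 genes averaging 10 or more normalised reads. It was -0.60 within the 18 sterol synthesis genes and -0.733 within the 9 fatty acid genes. With the trend subtracted it was -0.057 within the sterol synthesis genes and -0.05 within the fatty acid genes. These are descriptions across genes that share the same 8 libraries, and genes are not independent replicates.

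Role class and length were tied in the list, since the fatty acid genes include the longest transcripts and the sterol genes the shortest. On the uncorrected reads, edgeR called 0 sterol synthesis genes lower and DESeq2 called 1, Idi1. With the trend subtracted, 9 sterol synthesis genes were called higher and 0 lower, where 12.3% of all genes were called higher and 7.04% lower. The 9 were Hmgcs1, Mvk, Mvd, Fdps, Fdft1, Sqle, Tm7sf2, Msmo1 and Dhcr7. In the same fit 1 fatty acid gene was called higher, Fasn, and 0 lower. With the slope of each library as a covariate, limma-trend called 0 of the 32 genes, where it called 1.09% of all genes; 6 of the 32 had an unadjusted p under 0.05, and edgeR and DESeq2 were run without that covariate. Without the 4 libraries of steepest slope, which left 2 libraries per genotype, 6 sterol synthesis genes were called higher and none of the 32 lower, where 4.61% of all genes were higher and 4.54% lower. The 6 were Mvk, Mvd, Fdft1, Sqle, Msmo1 and Dhcr7.

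**Figure D4:**
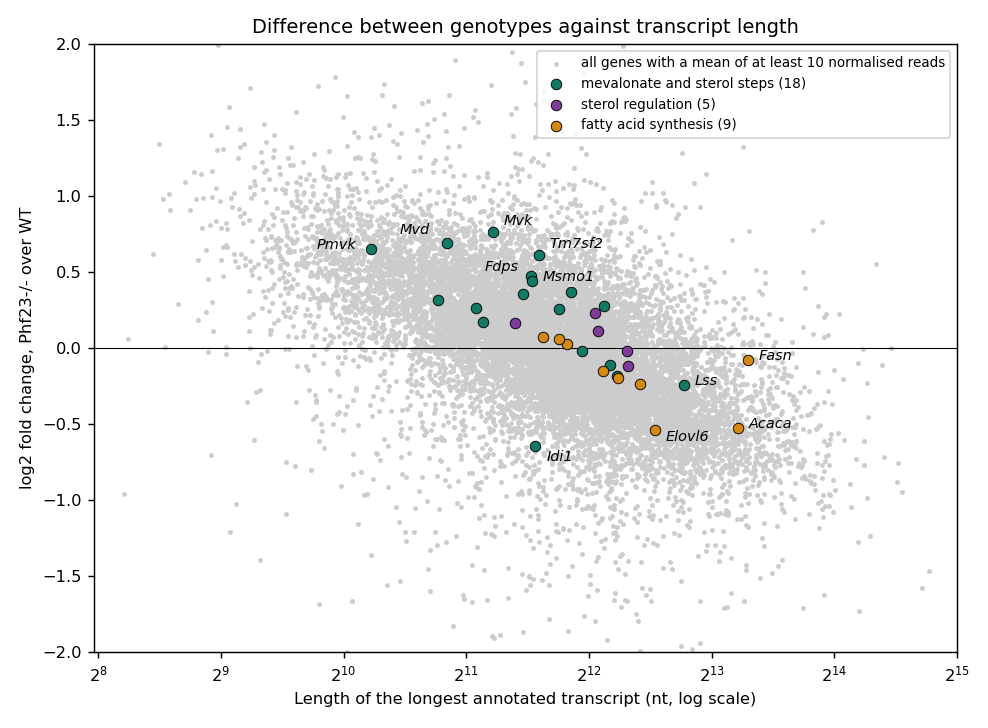
Log2 fold change, libraries labelled Phf23-/- over those labelled WT, against the length of the longest annotated transcript in nt on a log scale. Grey points are genes averaging 10 or more normalised reads, with the vertical axis limited to values between -2 and 2, and coloured points are the 32 genes by class; short-transcript genes such as Pmvk and Mvd lie high and long-transcript genes such as Acaca lie low, with Idi1 and Fasn labelled for comparison.

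Other genes of lipid metabolism were taken from 7 lists, whose counts stand against the 14.8% of all genes called higher, 14.8% called lower and 29.6% called either way. Fatty acid oxidation, which breaks fatty acids down in mitochondria, had the most calls. Of its 14 genes, 9 rose and 1 fell, with a median log2 fold change of 0.39; with the trend subtracted 8 were called higher (12.3% of all genes), and without the 4 libraries of steepest slope 4 were (4.61% of all genes). Acadl, an acyl-CoA dehydrogenase, had 5434, 6102, 5442 and 5166 normalised reads in Phf23-/- 1 to 4, against 3565, 3439, 3636 and 3748 in WT 1 to 4 (log2 fold change 0.62 ± 0.0908 SE, limma-trend FDR = 0.00185). The libraries of the genotypes were far apart. Cpt2, which rebuilds acyl-CoA inside mitochondria, had a log2 fold change of 0.53 (FDR = 0.00708), Cpt1c, a neuronal relative of the carnitine palmitoyltransferases, 0.41 (FDR = 0.0121), and Slc25a20, the carnitine carrier, 0.42 (FDR = 0.0159). Pdk4, a kinase that inhibits pyruvate dehydrogenase, fell (-0.56, FDR = 0.0424) and did not pass with the trend subtracted (FDR = 0.0918).

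Of 18 further genes of fatty acid synthesis and elongation, 5 rose and 1 fell, where 14.8% of all genes were called in each direction. The median of the list was 0.33, and its share called in either direction was near that of all genes. Without the 4 steepest libraries 2 were called higher and 2 lower. Slc25a1, which exports the citrate that Acly cleaves, had 2042, 2384, 1492 and 1402 normalised reads in Phf23-/- 1 to 4, against 892, 948, 1081 and 1306 in WT 1 to 4 (log2 fold change 0.77 ± 0.172 SE, limma-trend FDR = 0.00949). Mid1ip1 and Thrsp, known to promote acetyl-CoA carboxylase activity and lipogenesis, had 0.59 (FDR = 0.0065) and 0.61 (FDR = 0.00672), where Acaca itself was lower. With the trend subtracted Mid1ip1 was 0.31 (FDR = 0.00678) and Thrsp 0.31 (FDR = 0.0243), and Acaca was -0.04 and did not pass (FDR = 0.739). Hsd17b12 (0.28, FDR = 0.0469) and Tecr (0.60, FDR = 0.0232), which act with the elongases, also rose, and Tecr did not pass with the trend subtracted (FDR = 0.25). Elovl2, which lengthens polyunsaturated fatty acids, fell, with 346, 493, 447 and 461 normalised reads in Phf23-/- 1 to 4, against 897, 776, 755 and 680 in WT 1 to 4. Its log2 fold change was -0.84 ± 0.133 (SE, FDR = 0.00282), and -0.68 with the trend subtracted (FDR = 0.000693).

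Of 12 genes of sterol uptake and transport, 2 rose and 2 fell, with a median of -0.18 and a share of calls near that of all genes. Without the 4 steepest libraries 1 was called in each direction. Npc2, which hands cholesterol on inside lysosomes, had 5573, 6119, 4407 and 3793 normalised reads in Phf23-/- 1 to 4, against 2364, 2655, 2754 and 2983 in WT 1 to 4 (log2 fold change 0.87 ± 0.143 SE, limma-trend FDR = 0.0033). Gramd1a, a sterol transfer protein of the endoplasmic reticulum, also rose (0.26, FDR = 0.0371). Lrp1 and Lrp8, lipoprotein receptors, fell (-0.75, FDR = 0.0105, and -0.50, FDR = 0.0124). With the trend subtracted Gramd1a (FDR = 0.0515) and Lrp8 (FDR = 0.143) did not pass. Of 9 measured genes of sterol export and turnover, out of 10 listed, 2 rose, a smaller share called than the 29.6% of all genes. They were Abcg4, a sterol exporter (0.43, FDR = 0.0129), and Nr1h2, a liver X receptor (0.68, FDR = 0.015). Both passed with the trend subtracted (FDR = 0.0207 and 0.0344). Nr1h2 overlapped between genotypes and was 0.21 (FDR = 0.281) without the 4 steepest libraries, where Abcg4 passed (FDR = 0.0155).

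In SREBP processing and sterol sensing, the median was -0.17, and the share called in either direction was again near that of all genes. The 3 of 9 genes called all fell, where 14.8% of all genes were called lower. They were Mbtps1 and Mbtps2, the proteases that cut SREBPs (-0.38, FDR = 0.0162, and -0.37, FDR = 0.0454), and Erlin1, which takes part in sterol-regulated degradation (-0.30, FDR = 0.0352). With the trend subtracted none of the 3 passed limma-trend, while edgeR and DESeq2 on the uncorrected reads called 3 lower. In the isoprenoid branch, 2 of 10 genes fell, a smaller share called than the 29.6% of all genes, Pggt1b (-0.47, FDR = 0.0168) and Ggps1 (-0.36, FDR = 0.0393), both of which serve protein geranylgeranylation; neither passed with the trend subtracted (FDR = 0.981 and 0.375). Of 14 genes of acyl-CoA and glycerolipid synthesis, 3 rose and 1 fell, with a median of -0.12 and a share of calls near that of all genes. Dgat1, which makes triglyceride, had a log2 fold change of 0.62 (FDR = 0.00617), Agpat3 0.42 (FDR = 0.0105), Agpat1 0.43 (FDR = 0.023) and Acsl4, an acyl-CoA synthetase, -0.32 (FDR = 0.0371). With the trend subtracted Agpat1 (FDR = 0.348) and Acsl4 (FDR = 0.868) did not pass.

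**Figure D5:**
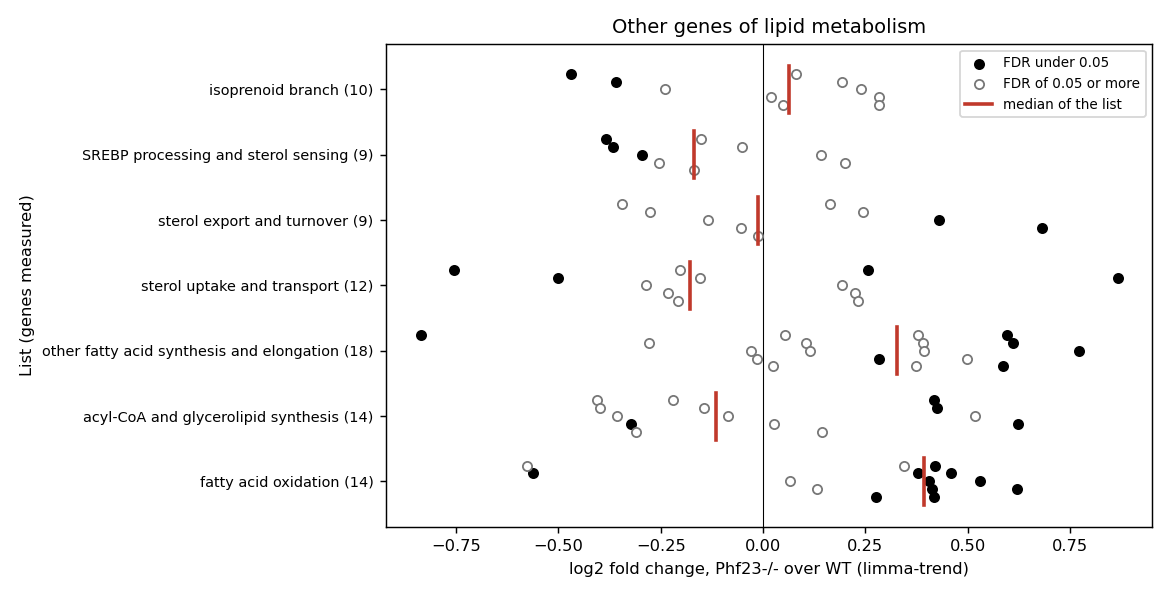
Log2 fold changes, libraries labelled Phf23-/- over those labelled WT, of the genes of 7 other lipid lists, with the number measured in brackets. Filled points have a limma-trend FDR under 0.05, open points do not, and the red line is the list's median; the medians are highest for fatty acid oxidation (0.39) and for other fatty acid synthesis and elongation (0.33).

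Oligodendrocytes make much of the brain's cholesterol, and 6 of the 12 markers of their lineage passed the test. Of the 12, 5 rose and 1 fell, where 14.8% of all genes were called in each direction, and their summed level overlapped between genotypes at 64424 to 78553 normalised reads in the libraries labelled Phf23-/-, against 52001 to 74079 in those labelled WT. Mbp, a myelin protein, had 183, 185, 190 and 215 normalised reads in Phf23-/- 1 to 4, against 46.1, 20.2, 66.4 and 52.3 in WT 1 to 4 (log2 fold change 2.16 ± 0.289 SE, limma-trend FDR = 0.00103). Sox10, a transcription factor of the lineage, had 237, 373, 282 and 262 in Phf23-/- 1 to 4, against 110, 109, 132 and 118 in WT 1 to 4 (1.27, FDR = 0.000654). Bcas1 (1.23), Enpp6 (1.99) and Mag (2.39), the other members that rose, mark oligodendrocytes that mature. Enpp6 had few reads, with means of 25.8 in the libraries labelled Phf23-/- and 5.82 in those labelled WT. Of the 12 markers, edgeR tested 10 and called 4 higher and 1 lower, where it called 35.2% of its genes. DESeq2 called 4 higher and 2 lower, where it called 33.6% of all genes. Mag was left out of the edgeR test and had no adjusted p-value from DESeq2, so its call rests on limma-trend alone. Cspg4, a marker of oligodendrocyte precursors, fell (-0.74, FDR = 0.00405), and all libraries labelled Phf23-/- lay below those labelled WT. The other 6 were not called. They were Mog, Cnp, Ugt8a, Pdgfra, and Olig1 and Olig2, which held most of the summed reads.

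Other markers also differed, and their counts stand against the 14.8% of all genes called higher, 14.8% lower and 29.6% either way by limma-trend. Of the 8 neural stem cell markers, limma-trend called 1 higher, Fabp7 (0.62, FDR = 0.00923). Their sum was 156480 to 195620 in the libraries labelled Phf23-/-, against 137670 to 146260 in those labelled WT. That sum was mostly Vim and Fabp7. Vim overlapped between genotypes and was not called by limma-trend (0.35, FDR = 0.0633). It passed in DESeq2 (FDR = 0.0233) and in limma-trend with the trend subtracted (0.37, FDR = 0.0213). Sox2, Prom1 and Pax6 also had positive log2 fold changes, and Nes (-0.11), Notch1 (-0.63) and Slc1a3 (-0.01) negative ones. With the trend subtracted Nes was 0.05 (FDR = 0.702), Notch1 -0.31 (FDR = 0.362) and Slc1a3 0.20 (FDR = 0.0487). Of the 8, DESeq2 called 3 higher, where it called 33.6% of all genes in either direction. The trend-subtracted fit also called 3 higher, where it called 12.3% of all genes higher. The 6 astrocyte markers went both ways: Gfap (0.91), S100b (0.78) and Aldoc (0.78) rose, and Aldh1l1 (-0.89), Aqp4 (-0.95) and Slc1a2 (-0.38) fell, though Slc1a2 was 0.16 with the trend subtracted (FDR = 0.105). Their sum was 7964 to 8798 in the libraries labelled Phf23-/-, against 9287 to 10147 in those labelled WT. Of the 6 neuron markers, Map2 fell (-0.79, FDR = 0.00282), Rbfox3 rose (1.63, FDR = 0.01) and 4 were not called. Their sum, 9542 to 12455 in the libraries labelled Phf23-/- against 15594 to 20951 in those labelled WT, was mostly Map2, which averaged 10077 normalised reads in the libraries labelled Phf23-/- and 17464 in those labelled WT. The 1 microglia marker of 6 that was measured here was at 14.4 to 17.9 normalised reads in the libraries labelled Phf23-/-, against 15.7 to 48.4 in those labelled WT. The 4 endothelial and mural markers measured, of 7, summed to 31.6 to 53.9 in the libraries labelled Phf23-/-, against 46.1 to 63.4 in those labelled WT, and the 2 fibroblast markers, of 4, to 14.4 to 38.2 against 8.83 to 28.8. The part of any of these cell types in the differences of the 32 genes was not tested.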

How the data were processed

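RNA was sequenced from 8 libraries, 4 labelled Phf23-/- and 4 labelled WT. The submitters' processing notes list STAR 2.7.1a, DESeq2 1.38.3, fastp 0.23.4 and FastQC 0.12.1, and the mm10 build. Which counter, annotation, strand setting and gene filter were used is not given in the sources used here. As deposited, the values are a normalised signal, gene reads divided by 1 size factor per library: 100% of values in each library were whole multiples of 1 step, at a tolerance of 0.0001 reads. Of 15602 rows, 64 were repeats and were left out. There were 0 columns of other samples. The lowest gene total was 11 recovered reads.

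The main test was limma-trend, fitted in R 4.3.3 with limma 3.58.1 and robust moderation, to log2(value + 1) against genotype, as a two-sided test, and p-values were adjusted by Benjamini and Hochberg's method across the 15538 genes. Each FDR in the text is from this test unless another tool is named. A gene was called at an FDR under 0.05. The added 1 makes fold changes of genes with few reads too small. Values are normalised reads, means ± SD and log2 fold changes ± SE. Symbols, coordinates (1-based) and transcript lengths come from GENCODE M21, matched for 15531 genes; length is that of the longest annotated transcript. Overlapping genes were counted in an way not stated.

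Alternatives were edgeR 4.0.16 and DESeq2 1.42.0 on the recovered reads, other scalings, a replicate block, a minimum mean of 10, 0.1 as the pseudocount, each library left out, a loess trend (span 0.3) with length and GC content subtracted from each library, the length slope as a covariate, and the 4 libraries of steepest slope left out. The genes and lists were chosen with earlier results of these data known. Named in the text are the 32 genes, Phf23, and up to 4 called genes of lowest FDR in each of the 7 other lipid lists and the oligodendrocyte list. A further 14 genes of the lists were named after their values were seen. Marker genes that were not called were also named then, and are outside the 74 named genes below. Other genes of these pathways are not analysed here.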

Additional observations from a re-analysis of the deposited data

Results flagged for a closer look

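Among 148 sets of 4 libraries of a genotype, for 74 named genes, 4 held a library far from the other 3 by Dixon's ratio; chance flags about 1 set in 20. Cyp51 had 3881 normalised reads in Phf23-/- 2, against 4716 to 4794 in the other libraries of that label. Fasn had 11623 in WT 2, against 12303 to 12413 in the other WT libraries. Fads2 had 6425 in WT 2, against 6805 to 6876. Bcas1, an oligodendrocyte lineage marker, had 356 in Phf23-/- 2, against 299.6 to 308. Without Phf23-/- 2 the log2 fold change of Cyp51 was 0.05, against -0.02 with all 8 libraries. The cause of these values was not tested.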

How the results depend on the processing

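Counts of calls depended on the setting, and the cause was not tested. The labels do not say whether the replicate number pairs libraries. In deviations from the mean of their genotype, libraries of the same number had correlations of -0.33, -0.13, -0.19 and -0.28. Libraries of different numbers had -0.33 to 0.37. These values cannot decide on a pairing, because the deviations also carry the length slopes of the libraries. With the replicate number as a block, 151 genes were called higher and 182 lower (2301 and 2292 without). That fit called 0 of the 32 genes, of which 13 had an unadjusted p under 0.05. With the slope covariate, 102 genes were called higher and 68 lower, and 0 sterol or fatty acid synthesis genes either way. With the length and GC trend subtracted, 1093 genes were called lower and 1903 higher, so that 63.5% of calls were higher, against 50.1% on the deposited values; 0 sterol synthesis genes and 0 fatty acid genes were lower and 1 fatty acid gene was higher. Without the 4 steepest libraries, 717 genes were higher and 705 lower, with 0 sterol and 0 fatty acid synthesis genes lower. The lower call of Idi1 was also lost, leaving 0, in edgeR with either scaling, with a pseudocount of 0.1 and with a minimum mean of 10. Leaving out each library in turn gave 948 to 2919 genes higher and 936 to 2942 lower, 4 to 12 sterol synthesis genes higher (4 without Phf23-/- 1 or WT 2) and 0 to 1 lower, and 1 to 2 fatty acid genes lower (1 without Phf23-/- 1, WT 1 or WT 2). Whole-table counts were lowest without Phf23-/- 1. Scaling by library size alone moved the median of all genes by -0.06, called 1827 genes higher and 2757 lower, left 7 sterol synthesis genes called higher, without Fdft1 and Sqle, and turned Acss2 (-0.033) and Fads1 (-0.0017).

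The slope covariate turned the log2 fold changes of Acat2 (-0.20), Pmvk (-0.066), Idi1 (0.24), Lss (0.19), Cyp51 (0.24), Tm7sf2 (-0.022), Hsd17b7 (0.39), Ebp (-0.16), Sc5d (0.10), Srebf1 (-0.10), Srebf2 (0.17), Stard4 (0.20), Acly (0.013), Fasn (0.25), Scd1 (0.14), Scd2 (0.18), Tecr (-0.081) and Slc1a2 (0.045). Subtracting the trend turned Lss (0.12), Cyp51 (0.12), Hsd17b7 (0.13), Sc5d (0.090), Srebf2 (0.028), Stard4 (0.17), Fasn (0.23), Scd1 (0.028), Fads2 (-0.036), Acsl4 (0.024) and Slc1a2 (0.16). Without the 4 steepest libraries, Acat2 (-0.024), Lss (0.10), Cyp51 (0.18), Hsd17b7 (0.26), Ebp (-0.025), Sc5d (0.0070), Srebf1 (-0.11), Srebf2 (0.065), Stard4 (0.19), Fasn (0.11) and Scd1 (0.065) turned. Leaving out 1 library turned Cyp51 (-0.070 to 0.053), Hsd17b7 (-0.20 to 0.0069), Srebf2 (-0.078 to 0.052) and Fasn (-0.16 to 0.0042).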
